A study of Homo sapiens with 2 samples.

Results

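The interferon regulatory factors (IRFs) were followed in MDA-MB-231, a human cell line from a triple-negative breast cancer with mesenchymal character. The members were the deposited rows whose symbol was IRF1, IRF2, IRF3, IRF4, IRF5, IRF7, IRF8 or IRF9, which gave 8 of the 20289 genes in the table. The cells had received an siRNA against the long non-coding RNA USP30-AS1 (si-USP30-AS1, 1 library, called the knockdown library here) or a negative control siRNA (si-NC, 1 library, the control library). The study asked how expression differs when USP30-AS1 is targeted. With 1 library of each kind no difference has a replicate check, no test between the conditions was possible, and each interval below is a 95% interval that covers counting error only. The level of USP30-AS1 was not analysed here, and how far it was silenced is therefore not shown.

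IRFs are transcription factors that share a DNA-binding domain marked by conserved tryptophans and recognise GAAA-type interferon-stimulated response elements. IRF3 and IRF7 sit in the cytoplasm until the kinases TBK1 and IKK-epsilon phosphorylate them after foreign RNA or DNA is sensed, and they then switch on interferon genes. Secreted interferon acts through receptors and JAK kinases to assemble ISGF3, a complex that contains STAT2 and IRF9 and activates the interferon-stimulated genes, IRF7 among them. IRF1 activates and IRF2 mainly represses overlapping targets, IRF5 drives inflammatory cytokine genes in myeloid cells, and IRF4 and IRF8 are factors of lymphocytes and myeloid cells.

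The libraries held 19569214 counts (knockdown) and 23287817 counts (control). Of the 8 members, 6 had a mean of at least 50 counts over both libraries and were compared, while IRF4 and IRF8 lay under that floor. The line's markers VIM, CD44, AXL and EGFR were present at 46.6 FPKM or more in the knockdown and 35.5 FPKM or more in the control library, where FPKM is the deposited fragment count scaled by transcript length and library size. ESR1, PGR, CDH1 and EPCAM were at 1.57 FPKM or less in the knockdown and 1.36 FPKM or less in the control library. In the whole table, 11530 genes were compared, and 1.60% of them were lower in the knockdown library by 2-fold or more, 1.55% were higher by as much, and 3.16% lay past 2-fold either way. IRF7 and IRF9 were selected on these same counts, by their low knockdown-to-control ratios, so the ratios below are a description, and the count of 2 of 6 compared members past 2-fold cannot be read against those shares. In bulk RNA, fewer cells that express a gene and less of its RNA per cell cannot be told apart.

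IRF7, which amplifies the production of interferon alpha, had the lowest ratio of the family. It had 99 counts in the knockdown library and 415 in the control library. Scaled for library size and composition (TMM), these are 5.15 and 17.5 CPM (counts scaled to a common library size). IRF7 was thus 3.41-fold lower (2.73 to 4.28) in the knockdown library, a log2 ratio of -1.67 after 0.5 CPM was added to both levels. In FPKM it stood at 3.11 in the knockdown and 11.2 in the control library, a log2 ratio of -1.85, so both units put it past 2-fold.

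IRF9, the subunit through which ISGF3 contacts DNA, was the most abundant family member in the control library and was also lower. It had 560 counts in the knockdown library (29.1 CPM) and 1637 in the control library (69.1 CPM). The difference was 2.37-fold lower (2.16 to 2.62), a log2 ratio of -1.23, and -1.24 in FPKM (23.4 in the knockdown and 55.3 in the control library). IRF7 and IRF9 did not differ by the same amount. The knockdown-to-control ratio of IRF7 was 1.43 times smaller (1.12 to 1.84) than that of IRF9, a comparison in which the library scaling cancels.

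The interval for IRF9 does not cover how reads were assigned. IRF9 lies on the plus strand of chromosome 14, from 24161053 to 24166565 (GRCh38), and 1838 of its 3794 exonic bases are also exonic in an overlapping same-strand gene with no symbol, ENSG00000259529, which runs from 24151218 to 24167402. The deposited counts of IRF9 were not whole numbers, 559.78 in the knockdown and 1637.24 in the control library, as happens when reads that match several genes are divided between them. That overlapping gene had 214 counts in the knockdown and 248 in the control library, a log2 ratio of 0.08. Its span also takes in part of RNF31, which lies on the same strand from 24146683 to 24160661. How its counts divide between these genes was not tested. As an outer limit, if all of its counts belonged to IRF9, the sum would be 1.98-fold lower (1.82 to 2.15), just short of 2-fold.

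**Figure D1:**
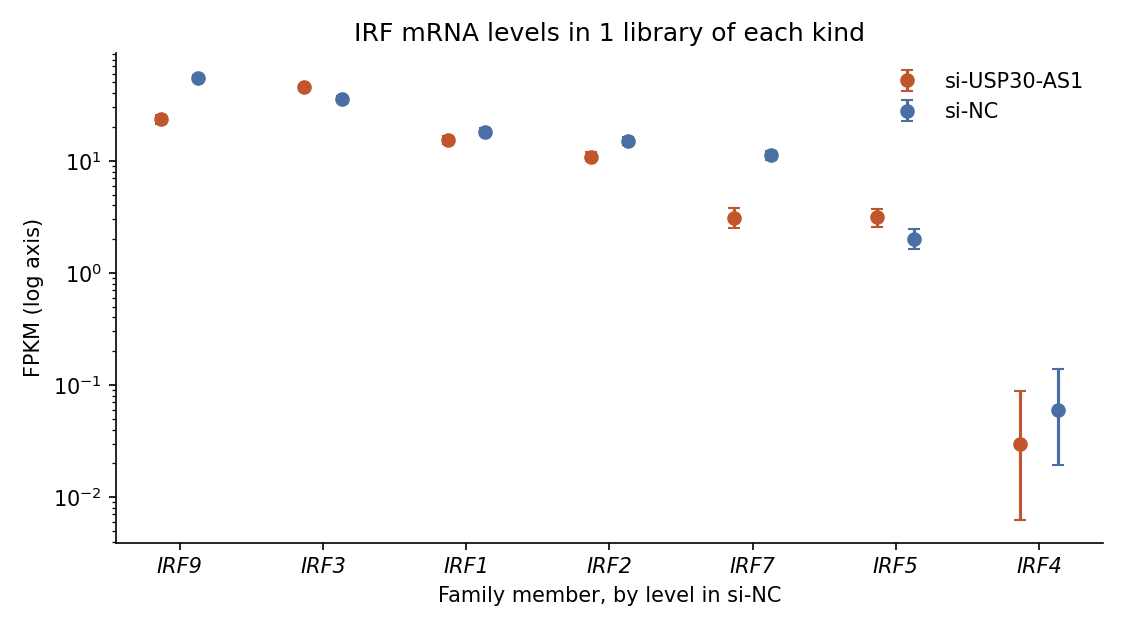
FPKM of the 7 members with any counts (log axis), in the knockdown library (si-USP30-AS1, orange, left of each pair) and the control library (si-NC, blue, right), with bars for the 95% counting interval. IRF7 and IRF9 stand clearly apart between the libraries, IRF7 and IRF5 meet at 3.11 and 3.12 FPKM in the knockdown library, and IRF4 lies far below the rest.

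IRF3, the constitutive sensor-driven factor that starts interferon transcription, was slightly higher. It had 1134 counts in the knockdown library and 1166 in the control library, which are 58.9 and 49.2 CPM after scaling. The ratio was 1.20-fold higher (1.10 to 1.30), a log2 ratio of 0.26, and 0.35 in FPKM (45.2 in the knockdown and 35.5 in the control library). IRF3 and its neighbour BCL2L12 overlap head to head on chromosome 19 and share 734 exonic bases on opposite strands. Whether strand was used in counting is not stated in the labels. Like those of IRF9, the deposited counts of IRF3 were not whole numbers (1134.05 in the knockdown and 1165.55 in the control library). BCL2L12 had a log2 ratio of -0.15 (583 counts in the knockdown and 796 in the control library), and the sum of both genes was 1.08-fold higher (1.01 to 1.15).

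IRF5 was the lowest of the compared members in the control library. It had 114 counts in the knockdown library and 102 in the control library, or 5.92 and 4.31 CPM. It was 1.38-fold higher (1.04 to 1.82), a log2 ratio of 0.42, and 0.62 in FPKM (3.12 in the knockdown and 2.02 in the control library). At this depth its interval reached almost to equality. The ratio of IRF5 divided by that of IRF3 was 1.15 (0.861 to 1.54), so a difference between these members was not detectable.

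IRF1, an activator of antigen presentation and guanylate-binding protein genes, had 518 counts in the knockdown library and 733 in the control library (26.9 and 30.9 CPM). It was 1.15-fold lower (1.03 to 1.29), with a log2 ratio of -0.20 in counts and -0.24 in FPKM. An unnamed gene on the opposite strand (ENSG00000283782) shares 469 exonic bases with it and was 1.86-fold higher (1.59 to 2.19). The deposited counts of IRF1 were whole numbers in both libraries, unlike those of IRF9 and IRF3. As an outer limit, the sum of all counts of both genes would be 1.13-fold higher (1.03 to 1.23).

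IRF2, the antagonist of IRF1, was, of the 6 compared members, the closest to equality in counts and the one whose units disagreed most. It had 446 counts in the knockdown library and 572 in the control library (23.2 and 24.2 CPM), a log2 ratio of -0.06 with a knockdown-to-control ratio of 0.960 (0.846 to 1.09). In FPKM it had 10.9 in the knockdown and 15.1 in the control library, a log2 ratio of -0.47, outside that interval. Counts divided by FPKM give the transcript length the authors' estimate assumed, and for IRF2 this was 1.28 times longer in the knockdown library. A gap between the 2 units as far from the typical gap occurred in 2.84% of the compared genes. For IRF5 the assumed length was 0.861 times that of the control. Its gap between the log2 ratios of the 2 units was reached by 6.13% of genes. That gap includes the effect of the added 0.5 CPM, which weighs more at the low level of IRF5. For IRF7 it was 1.02 times and for IRF9 0.963 times, so the low ratios of those members did not turn on the length used.

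IRF4 and IRF8, the leukocyte members, were near or at 0. IRF4 had 3 counts in the knockdown library and 5 in the control library, a ratio of 0.739 that counting error alone leaves anywhere from 0.115 to 3.80. IRF8 had 0 counts in both, which allows up to 0.156 CPM in the knockdown and 0.127 CPM in the control library (3 counts each). Leukocyte markers were as scarce. PTPRC, CD3E, MS4A1, CD14, LYZ, ITGAM and CD79A summed to 2.39 CPM in the knockdown and 2.11 CPM in the control library, most of it CD14 (42 and 40 counts), with 5 of the 7 at 0 in the knockdown and 2 in the control library.

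**Figure D2:**
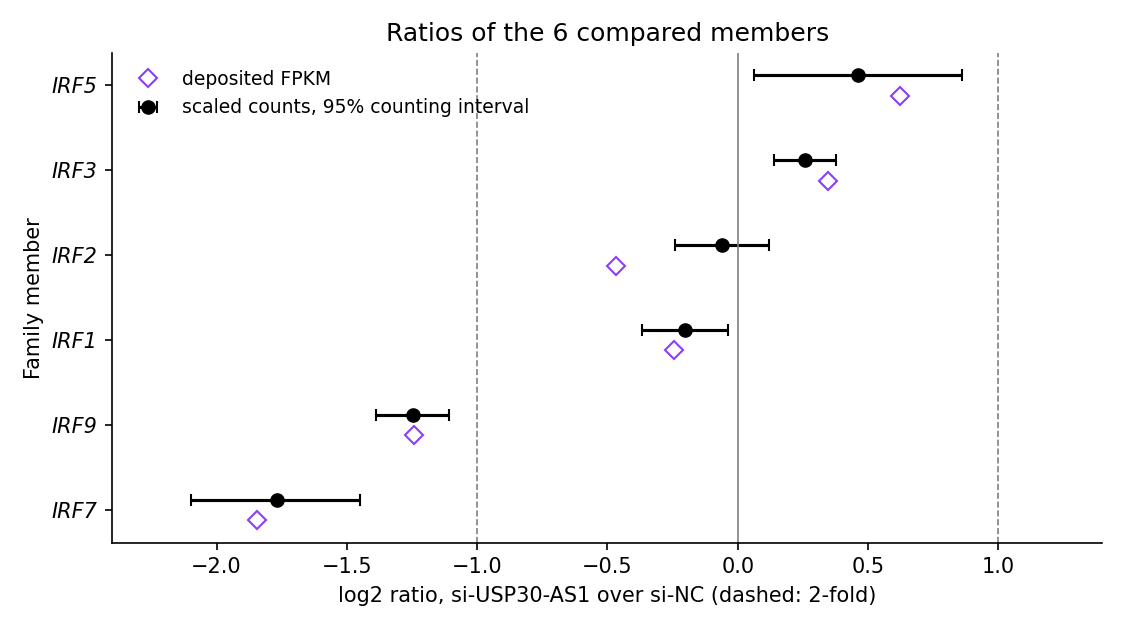
Log2 ratio of the 6 compared members, knockdown over control, from scaled counts without added CPM (black, with the 95% counting interval) and from the deposited FPKM (open diamonds). IRF7 and IRF9 lie beyond the dashed 2-fold line at -1 in both units, the other members lie within 2-fold, and only for IRF2 does the FPKM value fall outside the counting interval.

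The order of the members differed between the libraries. Per length, the control library ran from IRF9 (55.3 FPKM) over IRF3 (35.5), IRF1 (18.1), IRF2 (15.1) and IRF7 (11.2) to IRF5 (2.02). The knockdown library ran from IRF3 (45.2 FPKM) over IRF9 (23.4), IRF1 (15.3), IRF2 (10.9) and IRF5 (3.12) to IRF7 (3.11). IRF5 and IRF7 were indistinguishable in the knockdown library, with counting intervals of 2.57 to 3.75 and 2.53 to 3.79 FPKM. No other neighbours among these members had overlapping counting intervals in either library, but the spread between cultures is unknown.

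Seen as a share of the family, which needs no scaling between libraries, IRF9 made up 19.5% (Wilson interval 18.1 to 21.0) of the 2874 family counts in the knockdown library and 35.4% (34.0 to 36.7) of the 4630 in the control library. IRF7 made up 3.44% (2.84 to 4.18) in the knockdown and 8.96% (8.17 to 9.82) in the control library. IRF3 made up 39.5% (37.7 to 41.3) in the knockdown and 25.2% (24.0 to 26.5) in the control library. Counts weigh long transcripts more heavily, yet the FPKM shares of IRF9, IRF7 and IRF3 differed in the same directions. IRF9 was at 23.1% in the knockdown and 40.3% in the control library, and IRF3 at 44.7% in the knockdown and 25.9% in the control library. For IRF2 the direction depended on the unit. Its share was 15.5% in the knockdown and 12.4% in the control library by counts, and 10.8% and 11.0% by FPKM. Shares of a fixed whole must rise where others fall: IRF1, which was itself lower, had 18.0% in the knockdown and 15.8% in the control library. IRF3 had 1134 counts in the knockdown and 1166 in the control library before scaling, and was 1.20-fold higher after it.

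Taking IRF7 and IRF9 against the other 6 members gives the contrast in a single figure. Together they had 659 counts in the knockdown library and 2052 in the control library, 2.53-fold lower after scaling (2.32 to 2.77). The others had 2215 counts in the knockdown and 2578 in the control library, a ratio of 1.06 (0.999 to 1.12). Relative to the others, IRF7 and IRF9 were 2.68-fold lower (2.41 to 2.98). Set against single members, IRF7 was between 2.96-fold (IRF1) and 4.69-fold (IRF5) lower and IRF9 between 2.07-fold (IRF1) and 3.27-fold (IRF5) lower. The split was made from these values and carries no test.

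**Figure D3:**
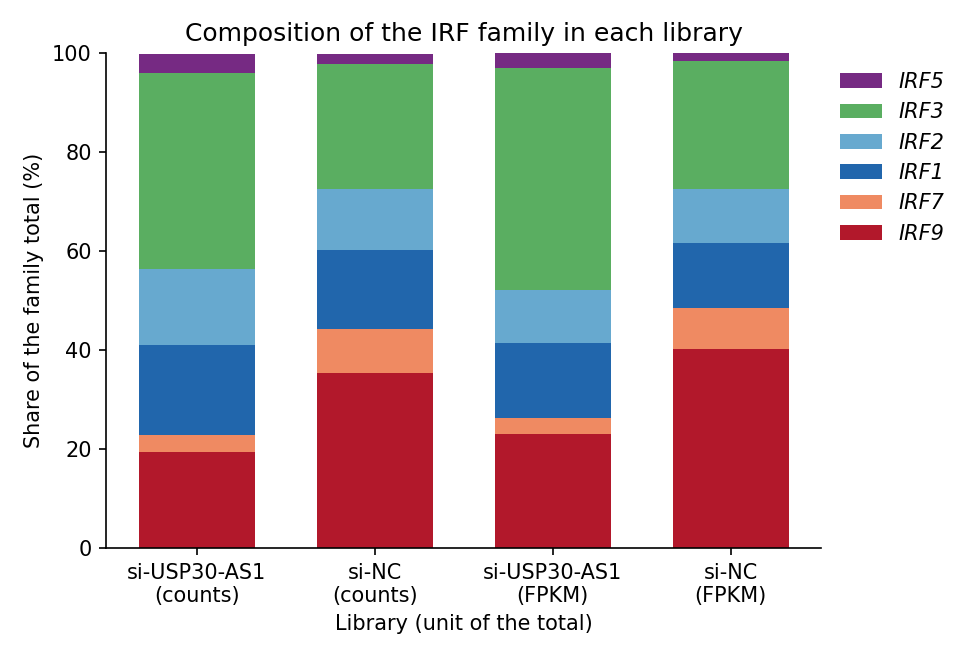
Share of the summed family level from each member, in percent, for the knockdown (si-USP30-AS1) and control (si-NC) library, from counts (left 2 bars) and from FPKM (right 2 bars). IRF4 adds at most 0.108% and is not drawn. IRF9 and IRF7 together hold 22.9% of family counts in the knockdown and 44.3% in the control library, and IRF3 holds the largest share in the knockdown library.

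The promoter sequences of IRF9 and IRF1 are shown because both genes are textbook targets of STAT signalling and yet had different ratios here. Of the 8 members, IRF1, IRF4, IRF5, IRF8 and IRF9 had entries in the RefSeq promoter table (GRCh38.p14, 9 windows of 250 bases before to 50 after a transcript start). Each window was searched on both strands for the GAS core TTCNNNGAA, the letters bound by STAT dimers, and for the ISRE core GAAANNGAAA. The GAS core occurred once in IRF9, beginning 63 bases before the start, once in IRF1, beginning 124 bases before the start, and in none of the other 7 windows. It occurs in 7.66% of all 35116 windows of the table. The ISRE core was in none of the 9 windows and is in 3.57% of all windows. The IRF8 windows begin at 85902580 and 85902765 of chromosome 16, inside the gene, which is annotated from 85898803. The sequence at that annotated start of IRF8 was therefore not searched. A match of letters is no evidence of binding, and no match says only that these letters are absent from the window. The windows run 5′ to 3′ along each gene's own strand, with the GAS core in capitals. The first is chr14:24161015-24161314 (plus strand) and the second chr5:132490724-132491023 (minus strand).
IRF9: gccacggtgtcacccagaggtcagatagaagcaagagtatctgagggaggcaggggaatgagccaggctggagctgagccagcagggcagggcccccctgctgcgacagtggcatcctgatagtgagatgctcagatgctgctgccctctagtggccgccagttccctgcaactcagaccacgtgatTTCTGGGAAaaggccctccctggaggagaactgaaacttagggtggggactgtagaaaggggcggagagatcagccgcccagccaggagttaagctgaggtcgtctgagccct
IRF1: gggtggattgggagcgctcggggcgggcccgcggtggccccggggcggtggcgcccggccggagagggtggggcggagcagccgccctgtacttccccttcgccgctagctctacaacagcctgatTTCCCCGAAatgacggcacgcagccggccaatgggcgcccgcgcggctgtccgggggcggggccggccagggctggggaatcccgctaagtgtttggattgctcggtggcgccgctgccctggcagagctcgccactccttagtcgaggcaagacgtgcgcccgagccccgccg

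A further sequence feature concerns IRF7. In an earlier look at these data, the words AACTCCA and ACTCCAA were found to be frequent in 3′ UTRs of genes that were lower in the knockdown library. They occur in a GENCODE 29 3′ UTR of 20.8% of 11409 compared genes, of 39.4% of the 180 genes at least 2-fold lower, and of 14.9% of the 175 at least 2-fold higher. A second pair of words, CCTAAGA and CTAAGAA, picked the same way for genes that were higher, occurs in 20.7% of all, 11.7% of the lower and 47.4% of the higher genes, and no member carries either. All 4 words were chosen on these data, so these shares are a description. IRF7 carries AACTCCA in a 3′ UTR of at most 92 bases, at position 17 of 6 coding transcripts and again at position 79 in 4 of them. IRF2 carries it at position 144 and IRF1 at position 1106 of their 3′ UTRs, each in 1 transcript, while IRF3, IRF4, IRF5, IRF8 and IRF9 carry neither AACTCCA nor ACTCCAA. Carriers thus include the lowest member and a pair of members within 1.15-fold of equality in counts. In FPKM that pair had log2 ratios of -0.47 (IRF2) and -0.24 (IRF1). IRF9 was lower without carrying either word. The siRNA sequence was not used here, and the part of these words in the ratios was not tested. The sites are shown with the word in capitals.
IRF7 (position 17): agtctaatgagAACTCCAgaaagctggag
IRF7 (position 79): ctaataaaaagAACTCCAgaaca
IRF2 (position 144): ttgctgtgtccAACTCCAgtactggagct
IRF1 (position 1106): cagcctggtgaAACTCCAtttctactaaa

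The nearest compared gene on each side of the 6 members that does not overlap the member was also followed. The overlapping genes named above were left out here, with log2 ratios of 0.87 (at IRF1), -0.15 (at IRF3) and 0.08 (at IRF9). Over the 12 genes that do not overlap, log2 ratios ran from -0.70 to 0.37 with a median of -0.08. Of them, 0 were past 2-fold in either direction, a count near the 3.16% of all compared genes. PHRF1 ends 331 bases from IRF7 (chromosome 11, minus strand, 612553 to 615999) and had a log2 ratio of -0.03. On its other side the nearest compared gene was DEAF1, 28234 bases away, which was 1.64-fold lower (1.46 to 1.85), the lowest of the 12. RNF31, which ends 392 bases before IRF9, was 1.38-fold lower (1.27 to 1.49), and IPO4 on the other side had a log2 ratio of -0.03.

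Interferon genes, among them those that IRF3 and IRF7 switch on, were not detected to any extent. Of 21 interferon genes, 19 had 0 counts in both libraries, including IFNB1, IFNG and every listed interferon alpha gene. IFNL1 had 5 counts in each library and IFNL2 1 count in the knockdown and 0 in the control library. A count of 0 has the limits given for IRF8.

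Among receptors, JAKs and STATs between interferon and IRF9, 0 of 11 genes passed 2-fold in either direction, where 3.16% of all compared genes did. Their log2 ratios lay below 0 in 8 of 11, beside 50.4% of all compared genes, with a median of -0.24 against -0.004. The lowest were IL10RB, a receptor chain of interferon lambda, at 1.74-fold lower (1.55 to 1.95) and STAT2, the partner of IRF9 in ISGF3, at 1.65-fold lower (1.54 to 1.78). The highest were JAK2, a kinase of the interferon gamma receptor, with a log2 ratio of 0.36 and IFNLR1, the specific chain of the interferon lambda receptor, with 0.24. Relative to STAT2, IRF9 was 1.44-fold lower (1.27 to 1.62).

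The sensors, adaptors and kinases that activate IRF3 and IRF7 lay on both sides of 0. Among 19 compared genes, 1 (5.26%) was higher by 2-fold or more and 0 were lower by as much. Of all compared genes, 1.55% were higher and 1.60% were lower by 2-fold or more. The median log2 ratio of the list was 0.07. The gene past 2-fold was TLR4, the receptor of bacterial lipopolysaccharide, with 1648 counts in the knockdown and 791 in the control library, 2.56-fold higher (2.35 to 2.79). The kinases of IRF3 and IRF7, named here for that role, had log2 ratios of 0.24 (TBK1) and 0.54 (IKBKE).

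Of 12 compared partners and cofactors of the family, 0 were past 2-fold in either direction, and their median log2 ratio was 0.01. IRF2BP2, a corepressor that binds IRF2, was the lowest with 1491 counts in the knockdown and 3196 in the control library, 1.74-fold lower (1.64 to 1.85), and EP300, a histone acetyltransferase that IRF3 recruits, followed at -0.33. The related corepressors IRF2BPL and IRF2BP1, named for that relation, had -0.29 and 0.01. At the other end stood NFATC2, which partners IRF4 in lymphocytes, at 0.78 and the architectural factor HMGA1 at 0.58. The partners IKZF1 and SPI1, factors of blood cells, had 0 counts. Of 15 compared negative regulators, 0 were past 2-fold as well. Both counts are near the 3.16% of all compared genes. The median of the negative regulators was 0.04, with FOXO3 (-0.55) and the ubiquitin ligase RNF5 (-0.35) lowest and OTUD1 (0.60) and PELI1 (0.47) highest.

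Downstream, some genes known as targets of ISGF3 were lower in the knockdown library. Of 39 compared ISGF3 targets, 8 (20.5%) were lower by 2-fold or more, beside 1.60% of all compared genes, and 0 were higher by as much. Their median log2 ratio was -0.42, and 28 lay below 0. The ISGF3 list overlaps interferon genes already known to be low in these data, so it gives no separate support. The 8 were IFI44L, BST2, IFITM1, MX1, IFI6, EPSTI1, OAS2 and OAS1, with log2 ratios from -3.28 to -1.12. IFI6, an inhibitor of viral replication at the endoplasmic reticulum, had 152 counts in the knockdown and 579 in the control library, 3.09-fold lower (2.58 to 3.72). OAS1, which makes the activator of RNase L, had 357 counts in the knockdown and 970 in the control library and was 2.21-fold lower (1.95 to 2.50). In the same list, 11 of the 39 genes lay above 0. OASL, a relative of OAS1, had a log2 ratio of 0.88, the highest of the list.

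Among 21 compared IRF1 targets, 1 (4.76%) was higher by 2-fold or more and 0 were lower by as much. Over all compared genes these shares were 1.55% higher and 1.60% lower. The median log2 ratio of the list was 0.04. The gene past 2-fold was CD274, which encodes the checkpoint ligand PD-L1, with 200 counts in the knockdown and 83 in the control library, 2.97-fold higher (2.29 to 3.88). Another 14 genes of the list lay under the floor, among them CXCL9 and VCAM1 with 0 counts in both libraries.

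**Figure D4:**
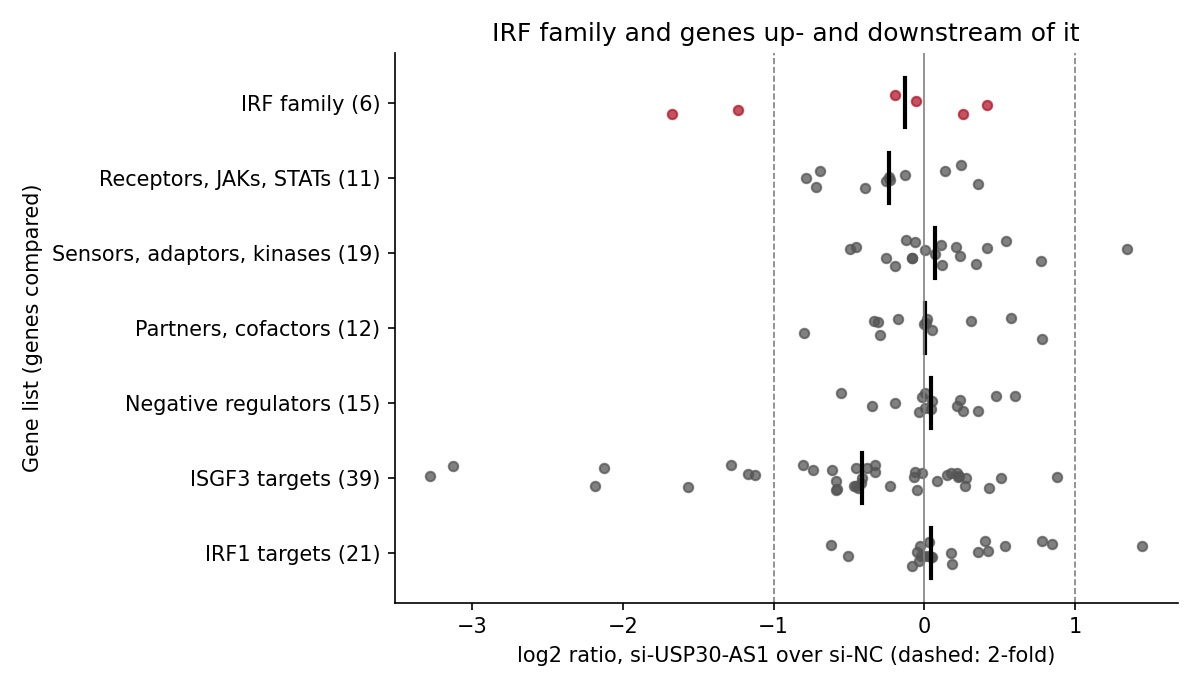
Log2 ratio, knockdown over control, of each compared gene in the family (red) and in 6 lists of genes up- and downstream of it (grey), with the list median as a black bar and the number of genes in brackets. IRF7, IRF9 and 8 ISGF3 targets lie left of the dashed line at -1, and the medians of the other lists lie between -0.24 and 0.07.

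With 2 libraries, likeness of pattern reduces to likeness of level in both. Compared genes with a symbol were ranked by the distance in log2 scaled CPM over the 2 libraries. Genes picked in this way must have ratios near that of the member, so their ratios are no separate finding. The nearest to IRF7 were KLRC2, BDKRB2 and RASL11A (distances 0.115 to 0.218 log2 units), with log2 ratios of -1.68, -1.53 and -1.57. KLRC2 belongs to a family of close copies, so its counts are uncertain. The nearest to IRF9 were SH3PXD2B, FUCA1 and PIAS3 (0.143 to 0.181), with log2 ratios of -1.06, -1.08 and -1.16.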

How the data were processed

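Poly(A) RNA of 2 libraries was sequenced, 1 per group, so no p-value between groups was computed. Per the submitters' processing notes, fastp 0.18.0, HISAT2, StringTie 1.3.1 and RSEM were used with GRCh38. The sources used here name neither the annotation nor the strand setting. The deposited table holds estimated counts per gene, not normalized by the authors (11.4% of knockdown and 12.0% of control values were not whole numbers), and FPKM that the authors normalized for length and depth, per the file headers. A further FPKM pair replaces 0 by 0.001, and the authors' deposited log2 fold is their ratio. Its p-values and FDR, from a test the authors do not state, were not used. The knockdown columns are named Si-179 and were matched by the table's title. No per-sample column was left unused (0).

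Counts were rounded and scaled with TMM factors of 0.983 (knockdown) and 1.017 (control; edgeR 4.0.16, R 4.3.3). A gene was compared at a mean of 50 counts or more and called past 2-fold at a log2 ratio of 1 in size, with 0.5 CPM added. Folds carry exact (Clopper-Pearson) intervals without the added CPM, FPKM levels exact Poisson intervals, and shares Wilson intervals, all at 95%. PCR copies are not independent molecules. Positions and 3′ UTRs came from GENCODE 29 (20171 of 20289 identifiers matched). The steps were tested on simulated counts.

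The members, the 7 lists and the IRF7 and IRF9 split were chosen with earlier results of these data known. Named were all members, list genes past 2-fold or else each list's 2 highest and 2 lowest, nearest compared neighbours, and the 3 genes nearest in level to IRF7 and IRF9. Genes named for a role, the overlapping genes and those given at 0 were added after values were seen. The receptor list and the leukocyte markers each leave out 1 gene that is not reported here. Alternatives were library totals, DESeq2 1.42.0 size factors, FPKM, an added 0.1 CPM, and floors of 200 counts or none.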

Additional observations from a re-analysis of the deposited data

How the results depend on the processing

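No paired analysis was possible because each group has 1 library. IRF7 and IRF9 stayed at least 2-fold lower with library totals, DESeq2 size factors, FPKM and an added 0.1 CPM, and no member passed 2-fold otherwise. In FPKM, IRF2 had a log2 ratio of -0.47. With the counts of the overlapping gene added (chosen after seeing the data), the log2 ratios were 0.17 for IRF1, 0.11 for IRF3 and -0.98 for IRF9, which then missed 2-fold. With a floor of 200 counts, 111 of 9792 genes were at least 2-fold lower, a smaller share than the 185 of 11530 at the floor of 50. At that higher floor 0 IRF1 targets were at least 2-fold higher. Without carriers of AACTCCA or ACTCCAA, 0 sensors, adaptors or kinases were at least 2-fold higher. Per length rather than per count, the family shares were 15.2% and 13.2% for IRF1, 10.8% and 11.0% for IRF2, 0.030% and 0.044% for IRF4, 3.09% and 1.47% for IRF5 and 23.1% and 40.3% for IRF9 (knockdown, then control), 44.7% for IRF3 in the knockdown and 8.17% for IRF7 in the control library. List medians moved by at most 0.07 log2 units under these alternatives. Those of partners, negative regulators and IRF1 targets, all near 0, took both signs. With 99 and 102 counts in their lower library, IRF7 and IRF5 had the widest intervals of the compared members, and nothing here measures the spread between cultures.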

Other observations

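In the deposited pathway annotation IRF9 stood in 13 pathways, IRF7 in 12, IRF3 in 18 and IRF2 in 0. IRF3, IRF7 and IRF9 stood together in 8 of them, among them the influenza A, measles and hepatitis C pathways. These 8 pathways held 755 other compared genes, which overlap between pathways and were counted once. Of them, 10 (1.32%) were lower in the knockdown library by 2-fold or more and 12 (1.59%) were higher by as much, beside 1.60% and 1.55% of all compared genes. Their median log2 ratio was 0.05, and the medians of the single pathways lay between 0.00 and 0.12.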
